A study of Danio rerio with 30 samples.

Results

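The genes described here build the hair bundle, the tuft of actin-filled stereocilia with which a hair cell senses deflection. They comprise 3 myosin motors (myo6b, myo7aa and myo15aa), 2 espin genes (espn and ENSDARG00000078211, an espin-like gene), and 4 genes of links and scaffolds (strc, loxhd1b, ush1c and whrna). They were given as a list of names and were looked up in a table of read counts by symbol, ignoring case and, where needed, the a or b suffix of zebrafish paralogs. The 9 names matched 13 of the 32520 genes in the table. MYO6, MYO7A, LOXHD1 and WHRN each stand for 2 Ensembl genes, and which one is the named paralog is not given in the sources used here, so both are reported by their IDs. All 13 are called bundle genes below by their names alone, and whether both genes of a symbol act in the bundle was not tested. All 13 passed the filter on low counts and were among the 22000 genes tested.

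Stereocilia are held upright by bundles of parallel actin filaments that are crosslinked by espin and other bundling proteins. Unconventional myosins carry cargo along this core or anchor it: myosin XVa takes whirlin to the tips, where stereocilia elongate, myosin VIIa works with harmonin at the tip link, and myosin VI acts at the base. In zebrafish the bundles of lateral line neuromasts lie at the body surface. Loss of several of these proteins in fish, mice or humans impairs hearing, balance or the lateral line sense.

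RNA-seq was done on mCherry-positive cells sorted by flow cytometry from trypsin-dissociated zebrafish larvae (Danio rerio) at 5 days post fertilization. All larvae carried the she:mcherry reporter, and the labels call the sorted cells neuromast cells of the posterior lateral line. Mutants carried the psi97 allele of isl1a, a LIM homeodomain transcription factor gene, and the controls were their siblings, whose own genotypes at this allele the labels do not give. Each genotype was sampled in homeostasis, without neomycin, or 3 h after a 30 min bath in 300 uM neomycin, an aminoglycoside antibiotic that kills lateral line hair cells. The 4 groups held 3 libraries each, called biological triplicates in the design text. As nothing says that they came from separate clutches, p-values reflect only how these samples vary, which may be in part technical. The sort takes hair cells and support cells together, so fewer hair cells and less RNA per hair cell cannot be told apart in any result that follows.

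The libraries held 23918226 to 30354161 counts in genes, and a bundle gene had between 49 and 18046 of them. ISL1, the gene taken as isl1a, had 0 or 1 count in each mutant library in homeostasis, 0 to 35 in each mutant library at 3 h, and 3351 to 6634 in each sibling library. Sibling replicate 2 at 3 h stood apart, with a mean correlation to its own group of 0.925, against 0.943 or more in the other 11 libraries. The sorted cells carried hair cell genes: 23 marker genes from outside the bundle gene lists summed to 34489 to 41591 CPM (counts scaled to library size) in siblings in homeostasis. They include TMC1, the TMC2 genes, tmie and lhfpl5b, of the mechanotransduction complex in the bundle, so the 23 are not all genes from outside the bundle itself. The sums of the 23 were 16592 to 21276 CPM in mutants in homeostasis, 3122 to 9486 in siblings at 3 h and 1694 to 3237 in mutants at 3 h. A large part of each sum was pvalb8, which averaged 27044.5 CPM in siblings and 13178 in mutants in homeostasis, and 2784 and 1107 at 3 h. Support cell markers (15 genes) summed to 3532 to 4764 CPM in siblings and 4703 to 5169 in mutants in homeostasis. At 3 h they summed to 6251 to 7608 CPM in mutants and to 3845, 9104 and 4636 in siblings, the second being replicate 2. Much of this was cldnb, which averaged 950 CPM in siblings and 1333 in mutants in homeostasis, and 1954 and 2811 at 3 h. Of the 14 support cell markers tested, SOST, LFNG and PROX1 fell after neomycin in each genotype. In each, 1 rose (wnt2 in siblings, ISL1 in mutants). Of all tested genes, 10.8% fell and 11.2% rose in siblings, and 9.56% fell and 6.95% rose in mutants. These 15 genes include ISL1 itself, which averaged 164 CPM in siblings and 0.012 in mutants in homeostasis, and 193 and 0.58 at 3 h. Markers of red blood cells (7 genes) were at 119 to 209 CPM in siblings and 1050 to 1485 in mutants in homeostasis, and skeletal muscle markers (12 genes) at 49.8 to 62.8 and 148 to 244 CPM. Leukocyte markers (8 genes) were at 38.6 to 89.7 CPM in homeostasis and 186 to 334 at 3 h in siblings. In mutants they were at 74.3 to 107 CPM in homeostasis and 113 to 211 at 3 h. After neomycin 7 of 8 rose in siblings and 3 of 8 in mutants, against 11.2% and 6.95% of all tested genes. Exocrine pancreas markers (5 genes) were at 1184 to 7743 CPM in siblings and 263 to 1371 in mutants at 3 h. Lower in mutants there were 3 of these 5 and 1 of 7 liver markers, against 4.88% of all tested genes. The part of these markers in the differences between genotypes and after neomycin was not tested.

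Bundle genes fell after neomycin in both genotypes, 9 of the 13 in each, and 3 were lower in undamaged mutants than in undamaged siblings. Of all tested genes, 10.8% fell after neomycin in siblings and 9.56% in mutants, and 1.72% were lower in undamaged mutants. The bundle genes were chosen with earlier results of these data known, so counts of them carry no test. In 7 of the 13 genes the mean CPM followed 1 order, with siblings in homeostasis first, then mutants in homeostasis, siblings at 3 h and mutants at 3 h, as in 13.2% of all tested genes. These were MYO6 (ENSDARG00000042141), MYO7A (ENSDARG00000099871), myo15aa, the espin-like gene, both LOXHD1 genes and WHRN (ENSDARG00000075362). Relative to siblings in homeostasis, they stood at 38.3% to 59.7% in mutants in homeostasis, 9.32% to 32.9% in siblings at 3 h and 5.33% to 21.5% in mutants at 3 h. No neighbouring groups overlapped in this order for myo15aa, the espin-like gene and LOXHD1 (ENSDARG00000094738), and in the other 4 only siblings and mutants at 3 h did. Of all tested genes, 1.32% had this order with no such overlap. The remaining 6 genes took other orders. Changes are given as log2 fold changes with their standard error after ±. Adjusted p-values are those of the quasi-likelihood test in edgeR, adjusted by Benjamini-Hochberg over the 22000 genes. Words such as rose, fell, lower and called are used of a gene where that p was under 0.05.

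**Figure D1:**
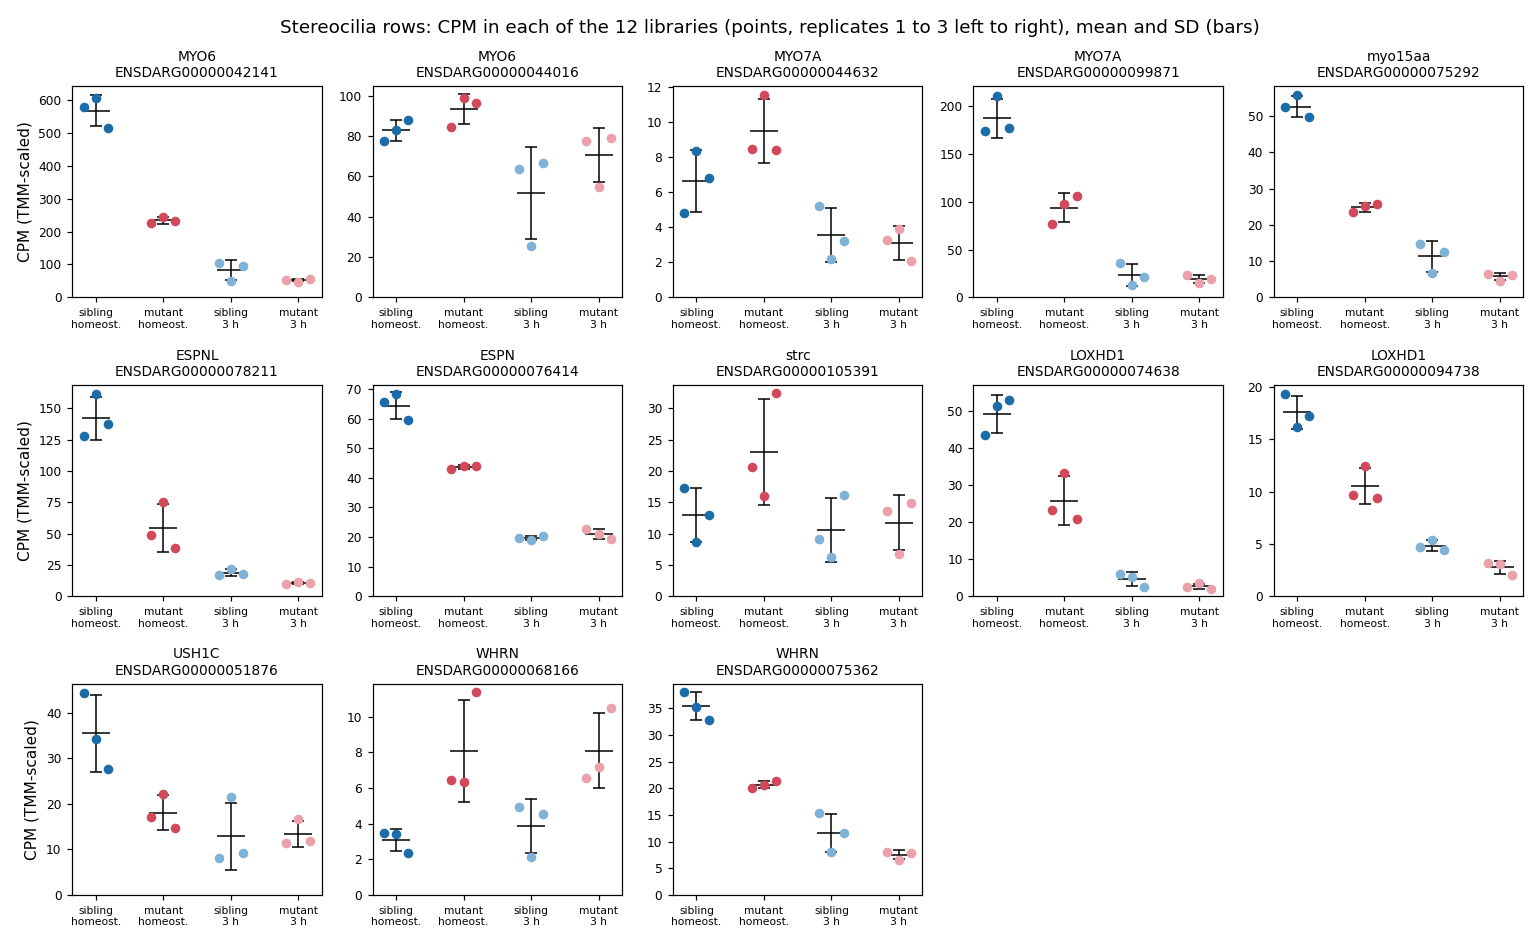
CPM of each of the 13 bundle genes in the 12 libraries, in 1 panel per gene with its own axis from 0; points are libraries, and bars are the mean and SD of 3. MYO6 (ENSDARG00000042141), for example, averaged 566 CPM in siblings in homeostasis, 234 in mutants in homeostasis, 83.4 in siblings at 3 h and 52.4 in mutants at 3 h, while WHRN (ENSDARG00000068166) lay above the siblings in the mutant libraries of both conditions.

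Among the motors, MYO6 (ENSDARG00000042141), a gene of myosin VI, the minus-end-directed myosin that anchors stereocilia at their base, had 579, 606 and 514 CPM in the 3 sibling libraries and 225, 245 and 231 in the 3 mutant libraries of homeostasis. Treated siblings had 105, 48.7 and 96.2 CPM and treated mutants 53.9, 48.1 and 55.3. Every sibling library in homeostasis lay above every mutant library in homeostasis, and both groups lay above all libraries at 3 h, where the genotypes overlapped. It was lower in mutants in homeostasis (−1.28 ± 0.24, adjusted p = 0.013). After neomycin it fell both in siblings (−2.76 ± 0.26, adjusted p = 1.7e-05) and in mutants (−2.16 ± 0.25, adjusted p = 0.00014). At 3 h the mutant difference missed that threshold (−0.67 ± 0.24, adjusted p = 0.1) but passed it without sibling replicate 2 at 3 h (−0.92, adjusted p = 0.0014). The call in homeostasis was lost without sibling replicate 2 in homeostasis (0.059) or without mutant replicates 1, 2 or 3 in homeostasis (0.073, 0.054 and 0.072).

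The other MYO6 gene (ENSDARG00000044016) had 77.5, 83.2 and 87.9 CPM in the 3 sibling libraries and 84.8, 99.0 and 96.6 in the 3 mutant libraries of homeostasis. After neomycin the values were 63.5, 25.7 and 66.5 in siblings and 77.7, 55.0 and 79.3 in mutants. Its genotypes overlapped in homeostasis and at 3 h, and the lowest of its 12 values was in sibling replicate 2 at 3 h. It passed no test (adjusted p = 0.88 and 0.36 between genotypes in homeostasis and at 3 h, 0.12 and 0.41 after neomycin in siblings and mutants).

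MYO7A (ENSDARG00000099871), a gene of myosin VIIa, the motor that bears on the upper end of the tip link, had 173, 211 and 177 CPM in the 3 sibling libraries and 76.6, 97.5 and 106 in the 3 mutant libraries of homeostasis. The libraries at 3 h held 35.4, 13.3 and 21.5 CPM in siblings and 23.03, 14.6 and 19.1 in mutants. All sibling libraries in homeostasis lay above all mutant libraries in homeostasis, and both lay above all libraries at 3 h, where the genotypes overlapped. Treated siblings had less of it than undamaged ones (−2.997 ± 0.32, adjusted p = 4.9e-05), as did treated mutants (−2.31 ± 0.31, adjusted p = 0.00041). The difference between genotypes in homeostasis missed the threshold (−1.002 ± 0.30, adjusted p = 0.094) and passed it without sibling replicates 1 or 2 at 3 h (0.035 and 0.012). The second MYO7A gene (ENSDARG00000044632) had 4.81, 8.31 and 6.79 CPM in the 3 sibling libraries and 8.42, 11.5 and 8.37 in the 3 mutant libraries of homeostasis. Its values at 3 h were 5.23, 2.2 and 3.21 in siblings and 3.29, 3.92 and 2.05 in mutants. Like the second MYO6 gene it had its highest mean in mutants in homeostasis, and there all mutant libraries lay above all sibling libraries (0.51 on the log2 scale, adjusted p = 0.57). In mutants it fell after neomycin (−1.61 ± 0.36, adjusted p = 0.0087), where all libraries at 3 h lay below those in homeostasis, and in siblings the change was −0.90 (adjusted p = 0.091, or 0.02 without sibling replicate 1 at 3 h).

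myo15aa (ENSDARG00000075292), a gene of myosin XVa, the motor of stereocilia elongation, had 52.6, 55.7 and 49.7 CPM in the 3 sibling libraries and 23.5, 25.2 and 25.8 in the 3 mutant libraries of homeostasis. Treated siblings had 14.8, 6.63 and 12.7 CPM and treated mutants 6.46, 4.64 and 6.19. Its 4 groups did not overlap at any point. It was lower in mutants in homeostasis (−1.08 ± 0.26, adjusted p = 0.035) and at 3 h (−0.98 ± 0.26, adjusted p = 0.034), and was the only myosin of the 5 called between genotypes in both conditions. Neomycin-treated larvae had lower myo15aa among siblings (−2.21 ± 0.26, adjusted p = 0.00012) and among mutants (−2.11 ± 0.27, adjusted p = 0.00026). The call in homeostasis was lost without any 1 of the 6 libraries in homeostasis or without mutant replicates 1 or 3 at 3 h (0.052 to 0.15). The call at 3 h was kept only without sibling replicate 3 in homeostasis or sibling replicate 2 at 3 h (0.052 to 0.10 without each of the other 10).

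Of the espin genes, the espin-like gene ENSDARG00000078211, given the symbol ESPNL in the name table, had 128, 161 and 138 CPM in the 3 sibling libraries and 49.3, 75.5 and 38.3 in the 3 mutant libraries of homeostasis. After neomycin the values were 17.0, 21.7 and 17.9 in siblings and 9.59, 11.5 and 10.7 in mutants. As for myo15aa, no groups overlapped, and mutants lay below siblings in both conditions. It was lower in mutants in homeostasis (−1.39 ± 0.23, adjusted p = 0.0068), the only difference between genotypes among the 13 genes that was called in all 12 fits that each left out 1 library. It was also lower in mutants at 3 h (−0.83 ± 0.24, adjusted p = 0.043). This call was kept only without mutant replicates 2 or 3 in homeostasis (0.057 to 0.15 without each of the other 10). After treatment it fell to 13.3% of the untreated mean in siblings (−2.91 ± 0.25, adjusted p = 1.1e-05), and it also fell in mutants (−2.36 ± 0.24, adjusted p = 7.7e-05).

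ESPN (ENSDARG00000076414), a gene of espin, the crosslinker of the parallel actin core, had 65.5, 68.2 and 59.4 CPM in the 3 sibling libraries and 42.9, 43.9 and 43.9 in the 3 mutant libraries of homeostasis. The libraries at 3 h held 19.8, 18.9 and 20.3 CPM in siblings and 22.8, 21.1 and 19.3 in mutants. The 3 mutant libraries in homeostasis lay below the 3 sibling libraries, and at 3 h both genotypes lay between 18.9 and 22.8 CPM. Both siblings (−1.71 ± 0.15, adjusted p = 1.4e-05) and mutants (−1.05 ± 0.15, adjusted p = 0.0006) had less of it after neomycin. The difference between genotypes in homeostasis missed the threshold (−0.56 ± 0.15, adjusted p = 0.061, or 0.0086 without sibling replicate 2 at 3 h). Its adjusted p in DESeq2 was 0.00018, where 8.3% of all tested genes were called. The fall in mutants was the smaller by 0.66 ± 0.21 on the log2 scale. The adjusted p of that difference was 0.36 in edgeR and 0.011 in DESeq2, which made it the 1 bundle gene called for a difference between neomycin responses by either tool with all 12 libraries.

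Among the links and scaffolds, strc (ENSDARG00000105391) is named for stereocilin, which in mice joins stereocilia to each other and to the tectorial membrane. The gene had 17.3, 8.73 and 12.9 CPM in the 3 sibling libraries and 20.6, 16.1 and 32.4 in the 3 mutant libraries of homeostasis. Its values at 3 h were 9.16, 6.28 and 16.2 in siblings and 13.6, 6.69 and 14.8 in mutants. Replicate 2 was the lowest of its group in all 4 groups, and only the comparison of mutants in homeostasis with mutants at 3 h had groups that did not overlap. It passed no test; the change after neomycin in mutants was −0.97 ± 0.41 (adjusted p = 0.14), and 0.015 with the replicate number as a block. A gene named strc1 (ENSDARG00000079336), outside the list and chosen after its values were seen, had 376, 361 and 323 CPM in the 3 sibling libraries and 179, 174 and 182 in the 3 mutant libraries of homeostasis. Treated siblings had 31.2, 5.98 and 26.0 CPM and treated mutants 16.4, 11.2 and 10.6. Its log2 fold changes after neomycin were further below 0 than those of all 13 genes, in siblings (−4.06 ± 0.47, adjusted p = 8.4e-05) and in mutants (−3.81 ± 0.46, adjusted p = 0.0002). Its difference between genotypes in homeostasis had an adjusted p of 0.26, or 0.0028 without sibling replicate 2 at 3 h. Which of strc and strc1 is the zebrafish stereocilin gene is not given in the sources used here.

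LOXHD1 (ENSDARG00000074638), a gene of a membrane-associated PLAT domain protein that mouse hair cells need for hearing, had 43.5, 51.4 and 53.1 CPM in the 3 sibling libraries and 23.2, 33.4 and 21.0 in the 3 mutant libraries of homeostasis. After neomycin the values were 6.1, 5.19 and 2.5 in siblings and 2.49, 3.49 and 1.91 in mutants. Its libraries at 3 h held at most 6.1 CPM, all below every library in homeostasis. Of the 13 genes it fell the most after neomycin, both among siblings (−3.42 ± 0.34, adjusted p = 2.9e-05) and among mutants (−3.30 ± 0.35, adjusted p = 8.1e-05). The second LOXHD1 gene (ENSDARG00000094738) had 19.3, 16.2 and 17.2 CPM in the 3 sibling libraries and 9.64, 12.5 and 9.36 in the 3 mutant libraries of homeostasis. The libraries at 3 h held 4.66, 5.41 and 4.4 CPM in siblings and 3.13, 3.07 and 2.05 in mutants. None of its groups overlapped. This gene fell with neomycin in the sibling (−1.87 ± 0.23, adjusted p = 0.00015) and the mutant larvae (−1.93 ± 0.24, adjusted p = 0.00021). It was lower in mutants at 3 h (−0.81 ± 0.23, adjusted p = 0.046). That call was lost without any 1 of the 12 libraries (0.06 to 0.19). The first LOXHD1 gene was at −0.81 between genotypes at 3 h (adjusted p = 0.14, or 0.037 without sibling replicate 3 at 3 h). In homeostasis the differences between genotypes were −0.93 ± 0.31 (adjusted p = 0.13) for the first gene and −0.74 (adjusted p = 0.095) for the second, which passed without sibling replicate 2 at 3 h (0.032).

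USH1C (ENSDARG00000051876), a gene of harmonin, the PDZ scaffold that holds the tip link cadherins, had 44.4, 34.3 and 27.7 CPM in the 3 sibling libraries and 17.2, 22.2 and 14.7 in the 3 mutant libraries of homeostasis. Its values at 3 h were 8.03, 21.4 and 9.23 in siblings and 11.5, 16.7 and 11.9 in mutants. Sibling libraries in homeostasis lay above all mutant libraries, and sibling replicate 2 at 3 h was the highest of its group and within the range of mutants in homeostasis. Harmonin is also made by brush border cells, and the sum of 11 brush border markers was 67.1 CPM in that library, 34.3 and 19.0 in the other siblings at 3 h and 10.7 to 39.4 in the other groups; their part in the result was not tested. USH1C fell after neomycin in siblings (−1.46 ± 0.35, adjusted p = 0.01, or 0.056 with only those 2 groups fitted), and in mutants the change was −0.43 (adjusted p = 0.46). The difference between both responses was 1.03 ± 0.49 (adjusted p = 0.57). Without sibling replicate 2 at 3 h it was 1.63 (adjusted p = 0.042), in a comparison where 0.84% of all tested genes were called in either direction.

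Of the whirlin genes, scaffolds that travel with myosin XVa to the stereocilia tips, WHRN (ENSDARG00000075362) had 38.0, 35.3 and 32.8 CPM in the 3 sibling libraries and 20.1, 20.6 and 21.3 in the 3 mutant libraries of homeostasis. Treated siblings had 15.3, 8.03 and 11.5 CPM and treated mutants 8.15, 6.65 and 7.95. Its level was lower after neomycin in both siblings (−1.60 ± 0.23, adjusted p = 0.00037) and mutants (−1.45 ± 0.23, adjusted p = 0.001). Its differences between genotypes missed the threshold in homeostasis (−0.77 ± 0.22, adjusted p = 0.078) and at 3 h (−0.62, adjusted p = 0.10). Leaving out sibling replicate 2 at 3 h took both past it (0.0072 and 0.011). The other WHRN gene (ENSDARG00000068166) had 3.46, 3.43 and 2.37 CPM in the 3 sibling libraries and 6.47, 6.36 and 11.4 in the 3 mutant libraries of homeostasis. After neomycin the values were 4.93, 2.14 and 4.57 in siblings and 6.58, 7.2 and 10.5 in mutants. Mutants lay above siblings in every library of both conditions. Those differences were 1.38 ± 0.36 in homeostasis (adjusted p = 0.057, or 0.012 without sibling replicate 2 at 3 h) and 1.06 at 3 h (adjusted p = 0.083), and the log2 fold change after neomycin was 0.33 in siblings (adjusted p = 0.57) and 0.00 in mutants (adjusted p = 1.0). DESeq2 called this gene higher in mutants in homeostasis (adjusted p = 0.0073) and at 3 h (adjusted p = 0.029). It was the 1 gene of the 13 with a change above 0 after neomycin in siblings.

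Between genotypes in homeostasis, 3 of the 13 genes (MYO6 ENSDARG00000042141, myo15aa and the espin-like gene) were called lower in mutants and 0 higher, while 1.72% of all tested genes were called lower and 1.85% higher. The median log2 fold change of the 13 was −0.77, against 0.01 over all tested genes. The 3 mutant libraries lay below all 3 sibling libraries in 9 genes and above them in 2 (MYO7A ENSDARG00000044632 and WHRN ENSDARG00000068166), where 15.4% and 14.5% of all tested genes did so. At an unadjusted p under 0.05 there were 10 genes, where 15.9% of all tested genes were. DESeq2 called 9 of 13 (8 lower and 1 higher; 8.3% of all tested genes in either direction), a fit of those 2 groups alone called 10 (9 lower and 1 higher; 10.7%), and the fit without sibling replicate 2 at 3 h called 9 (8 lower and 1 higher; 9.19%). To the 3 genes above, DESeq2 added MYO7A (ENSDARG00000099871), ESPN, both LOXHD1 genes and WHRN (ENSDARG00000075362) as lower. It added WHRN (ENSDARG00000068166) as higher. The fit of 2 groups alone called these and USH1C, which was lower. With all 4 groups in edgeR, the count was 1 without sibling replicate 2 or any 1 mutant replicate in homeostasis. Leaving out sibling replicate 1 at 3 h gave 5. The shares of all tested genes called in these fits with a count of 1 or 5 were not tallied.

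Between genotypes at 3 h, myo15aa, the espin-like gene and LOXHD1 (ENSDARG00000094738) were called lower in mutants and 0 higher, against 4.88% of all tested genes called lower and 4.9% higher. The 3 mutant libraries lay below all 3 sibling libraries in 3 genes (13.6% of all tested genes) and above them in 1 (12.3%). Same-numbered libraries at 3 h were paired because their deviations correlated in these data, and the labels do not state a pairing. Within these pairs the mutant library was lower in all 3 pairs for 6 genes (29.0% of all tested genes). It was higher in all 3 for 2 (22.1%). The 6 add MYO6 (ENSDARG00000042141), LOXHD1 (ENSDARG00000074638) and WHRN (ENSDARG00000075362) to the 3 called, and the 2 are MYO6 (ENSDARG00000044016) and WHRN (ENSDARG00000068166). The median of the 13 was −0.31, against −0.14 over all tested genes. Each of these 3 calls was lost in at least 10 of the 12 fits that left out a library. The count was 0 or 1 in all of those fits but the one without sibling replicate 2 at 3 h. That fit called 3 genes but not the same 3: myo15aa, MYO6 (ENSDARG00000042141) and WHRN (ENSDARG00000075362). The shares of all tested genes called at 3 h in these fits were not tallied.

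After neomycin, 9 of the 13 genes fell in siblings and 9 in mutants, and none rose; 10.8% and 9.56% of all tested genes were called lower in these comparisons and 11.2% and 6.95% higher. Of the 13, 8 fell in both genotypes, USH1C was called in siblings only and MYO7A (ENSDARG00000044632) in mutants only, and neither was called for a difference between the responses. The remaining 3, MYO6 (ENSDARG00000044016), strc and WHRN (ENSDARG00000068166), were called in neither. The medians were −1.71 in siblings and −1.61 in mutants, against 0.10 and −0.04 over all tested genes. Libraries at 3 h lay below all libraries in homeostasis for 10 genes in siblings and 11 in mutants (17.2% and 22.7% of all tested genes). All 9 calls in each genotype were kept in all 12 fits that left out a library.

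**Figure D2:**
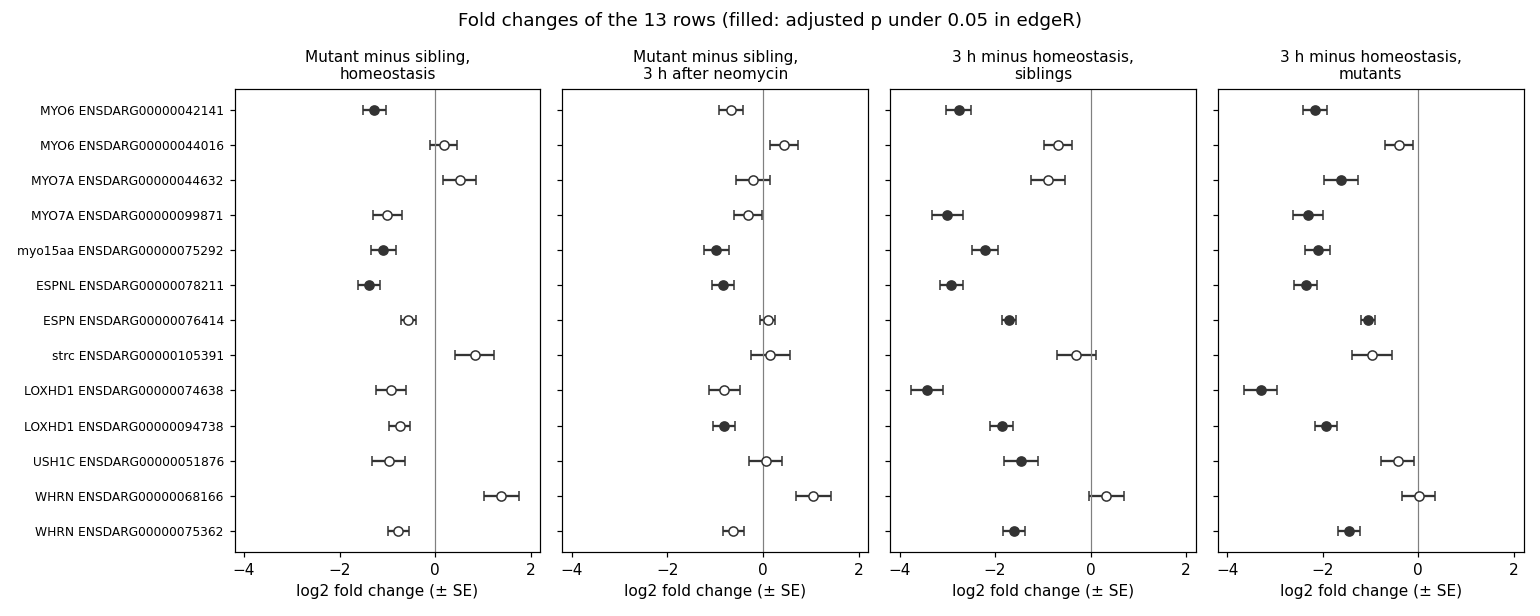
Log2 fold changes of the 13 bundle genes, with bars of 1 SE, for mutants against siblings in homeostasis and at 3 h and for treated against untreated larvae of each genotype; filled points have an adjusted p under 0.05. Filled points number 3, 3, 9 and 9 from left to right, all below 0.

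No bundle gene was called for a difference between the neomycin responses of mutants and siblings, where 0.105% of all tested genes were called in either direction. At an unadjusted p under 0.05 there was 1 gene of the 13, against 8.89% of all tested genes. It was ESPN, which DESeq2 also called (1.7% of all tested genes called by DESeq2). The median difference was 0.16, against −0.14 over all tested genes. The 4 comparisons share groups, so their fold changes are not independent of each other.

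The genes that share a symbol were compared within each library, as the log2 ratio of their read counts, which does not depend on library scaling. Gene lengths were not used, so a ratio is read for how it differs between groups and not as a ratio of expression levels. The MYO6 ratio (ENSDARG00000042141 over ENSDARG00000044016) was 2.77 ± 0.19 (SD, n = 3) in siblings in homeostasis, 1.32 ± 0.08 in mutants in homeostasis, 0.73 ± 0.19 in siblings at 3 h and −0.41 ± 0.19 in mutants at 3 h. It was lowest in mutants at 3 h, where the second gene had more counts than the first in all 3 libraries. The WHRN ratio (ENSDARG00000075362 over ENSDARG00000068166) was 3.53 ± 0.22 in siblings in homeostasis, 1.41 ± 0.44 in mutants in homeostasis, 1.63 ± 0.29 in siblings at 3 h and −0.07 ± 0.36 in mutants at 3 h, and counts of both genes were near equal in mutants at 3 h. The MYO7A ratio (ENSDARG00000099871 over ENSDARG00000044632) was 4.85 ± 0.28 in siblings in homeostasis, 3.31 ± 0.31 in mutants in homeostasis, 2.7 ± 0.08 in siblings at 3 h and 2.64 ± 0.68 in mutants at 3 h. The LOXHD1 ratio (ENSDARG00000074638 over ENSDARG00000094738) was 1.49 ± 0.28 in siblings in homeostasis, 1.28 ± 0.13 in mutants in homeostasis, −0.16 ± 0.61 in siblings at 3 h and −0.08 ± 0.26 in mutants at 3 h, and it overlapped between genotypes in both conditions. Over 4 pairs and 4 comparisons, 12 of 16 had groups that did not overlap, with a two-sided exact permutation p of 0.1, the smallest that 3 against 3 libraries can give (0.133 after Benjamini-Hochberg adjustment over the 16). In the same exact permutation test the other 4 had p = 0.3 (LOXHD1 between genotypes in homeostasis, MYO7A after neomycin in mutants) and p = 1 (LOXHD1 and MYO7A between genotypes at 3 h). The share of other gene pairs whose count ratios separate in this way was not computed, and the 4 comparisons share groups. With 3 libraries a group this test could not reach the threshold used for calls. The 12 are therefore given as a count only, and whether that count is unusual was not tested. Multimapping reads stand apart from the gene counts, so near-identical stretches of paralogs may be undercounted in each.

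**Figure D3:**
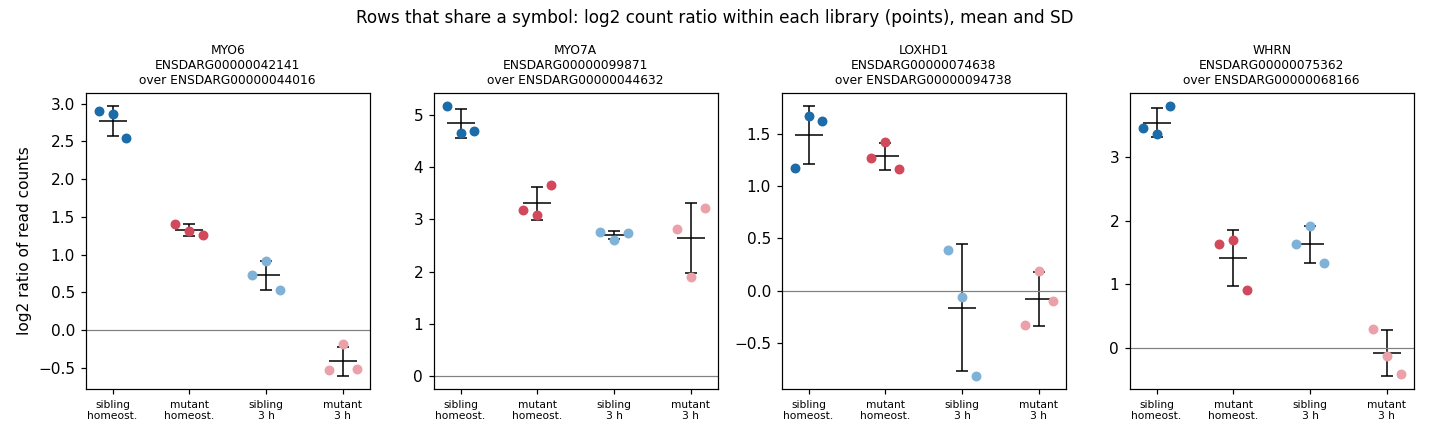
Log2 ratio of read counts of the 2 genes that share a symbol, in each library, for MYO6, MYO7A, LOXHD1 and WHRN; points are libraries, and bars are the mean and SD of 3, with axes that differ between panels. The MYO6 ratio averaged 2.77 in siblings in homeostasis and −0.41 in mutants at 3 h, and the LOXHD1 ratio was 1.49 and 1.28 in homeostasis and −0.16 and −0.08 at 3 h.

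Hair cell genes outside the bundle lists, with TMC1, TMC2, tmie and lhfpl5b of the bundle among them, also had lower medians in the same groups. The median log2 change of the 23 such genes from siblings in homeostasis was −1.04 ± 0.15 (SD, n = 3) in mutants in homeostasis, −2.11 ± 0.57 in siblings at 3 h and −3.08 ± 0.28 in mutants at 3 h. Set against that median within each library, myo15aa stood at −0.04, −0.17 and −0.10 in these 3 groups, and MYO6 (ENSDARG00000042141) at −0.23, −0.73 and −0.35. MYO7A (ENSDARG00000099871) stood at 0.03, −0.99 and −0.24. The middle values of these 3 motors, those of siblings at 3 h, have SDs of 1.16 (myo15aa), 1.17 (MYO6) and 1.20 (MYO7A). In sibling replicate 2 at 3 h the 3 motors were at −1.52, −2.08 and −2.34, and without that library their means were 0.50, −0.06 and −0.32. The espin-like gene stood at −0.40, −0.80 and −0.65, and LOXHD1 (ENSDARG00000074638) at 0.09, −1.39 and −1.14. The other 8 genes lay above the median in all 3 group means. WHRN (ENSDARG00000068166) was the furthest above it (2.37, 2.36 and 4.44), followed in mutants at 3 h by strc (1.86, 1.76 and 2.91) and MYO6 (ENSDARG00000044016; 1.21, 1.31 and 2.84). MYO7A (ENSDARG00000044632) stood at 1.56, 1.16 and 1.98, USH1C at 0.07, 0.54 and 1.69, and ESPN at 0.48, 0.40 and 1.48. Closest to it were WHRN (ENSDARG00000075362; 0.27, 0.46 and 0.87) and LOXHD1 (ENSDARG00000094738; 0.29, 0.26 and 0.42). Without sibling replicate 2 at 3 h, the sibling means at 3 h were 3.06, 2.40, 2.08, 1.78, 0.42, 0.76, 1.03 and 0.50 for these 8 genes in the order named, and −0.58 and −1.19 for the espin-like gene and LOXHD1 (ENSDARG00000074638). In sibling replicate 2 at 3 h the 23 genes stood at −1.46, against −2.36 and −2.51 in the other sibling libraries at 3 h, while the CPM of 9 of the 13 bundle genes were lowest of the group there. The share of all tested genes that were lowest there was not computed. That library also had a TMM scaling factor of 0.756, against 0.916 to 1.097 in the others.

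**Figure D4:**
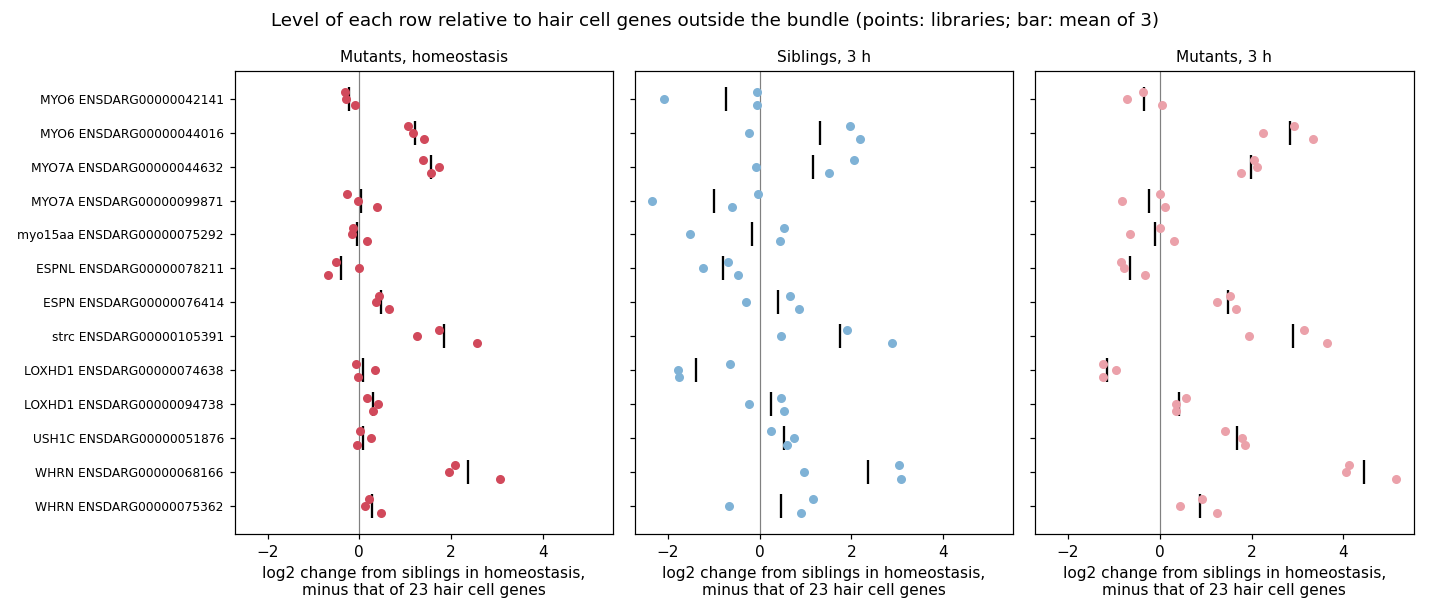
Log2 change of each bundle gene from the mean of siblings in homeostasis, minus the median change of 23 hair cell genes outside the bundle lists in the same library. Points are libraries and bars the mean of 3, in 1 panel per group. myo15aa averaged −0.04, −0.17 and −0.10 in the 3 panels (0.50 in the middle one without sibling replicate 2), and WHRN (ENSDARG00000068166) 2.37, 2.36 and 4.44.

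Across the 12 libraries, the log2 CPM of 8 of the 13 genes correlated above 0.85 with the mean of the other bundle genes, up to 0.983 for MYO7A (ENSDARG00000099871). The lowest Pearson correlations were −0.206 for WHRN (ENSDARG00000068166), 0.436 for strc and 0.598 for USH1C. Outside the list, the 5 genes with a symbol most like the mean of the 13 over these libraries were strc1 (r = 0.993), pcsk5a (0.990), TECPR1 (0.990), FAM151A (0.989) and atp2b2 (0.989), which encodes a plasma membrane calcium pump. The libraries fall into 4 groups that differ in hair cell genes, so these correlations describe a pattern over groups and carry no test.

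Other genes of the bundle were taken from lists of hair bundle genes. These lists were chosen with earlier results of these data known, so counts from them carry no test. Their counts stand beside 1.72%, 4.88%, 10.8% and 9.56% of all tested genes called lower between genotypes in homeostasis and at 3 h and after neomycin in siblings and in mutants, and 1.85%, 4.9%, 11.2% and 6.95% called higher. Of 7 further myosins, 3 were called lower in mutants in homeostasis (median −0.52), 0 lower and 1 higher at 3 h (−0.10), 5 lower after neomycin in siblings (−2.14), and 4 lower and 1 higher in mutants (−1.54). MYO3B (ENSDARG00000006892), a gene of a class III myosin of stereocilia tips, averaged 76.0 ± 5.48 CPM in undamaged siblings and 24.1 ± 0.306 in undamaged mutants (SD, n = 3). Its means at 3 h were 13.4 ± 4.84 CPM for siblings and 7.93 ± 0.623 for mutants. It was lower in mutants in homeostasis with the largest change of the 3 called (−1.66 ± 0.23, adjusted p = 0.0025). myo1hb (−1.51 ± 0.29, adjusted p = 0.013) and MYO3A (ENSDARG00000010186; −1.08 ± 0.26, adjusted p = 0.036) were lower too. The myo1hb call was lost without sibling replicate 2 or any 1 mutant replicate in homeostasis (up to 0.081), and the MYO3A call without any 1 of the 6 libraries in homeostasis (up to 0.15). MYO1C (ENSDARG00000061579), a gene of a class I myosin found in many cell types, went the other way: it was at 59.13 ± 10.5 CPM in siblings and 142 ± 21.0 in mutants at 3 h (1.27 ± 0.20, adjusted p = 0.0024) and rose after neomycin in mutants (1.24 ± 0.20, adjusted p = 0.0014). A second myosin XVa gene, MYO15A (ENSDARG00000078474), was lower after neomycin in both siblings (−2.14 ± 0.31, adjusted p = 0.00048) and mutants (−1.54, adjusted p = 0.0048).

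Of 22 other genes of the actin core and its membrane, 5 were called lower in mutants in homeostasis (median −0.65), 5 lower and 2 higher at 3 h (−0.39), 14 lower after neomycin in siblings (−0.92), and 10 lower and 1 higher in mutants (−0.97). Lower in mutants in homeostasis were triobpa, a rootlet gene (219.9 ± 19.0 against 89.4 ± 9.75 CPM, adjusted p = 0.0027), and FSCN2 (ENSDARG00000074396), which encodes an actin bundler (134 ± 4.31 against 59.14 ± 5.39 CPM, adjusted p = 0.0034). So were baiap2l2a (30.9 ± 0.531 against 11.4 ± 0.642 CPM, adjusted p = 0.0068) and PLS1, the fimbrin gene of stereocilia (50.4 ± 3.94 against 25.1 ± 4.16 CPM, adjusted p = 0.0081). The PLS1 call was lost without mutant replicates 1 or 3 in homeostasis (adjusted p up to 0.055). After neomycin in siblings, baiap2l2a fell by 3.88 on the log2 scale (adjusted p = 6.1e-06) and TWF2 (ENSDARG00000094792), an actin-capping twinfilin gene, by 2.61 (adjusted p = 1.2e-05). actb2, a cytoplasmic actin gene of all cells, was at 2678 ± 90.1 CPM in siblings and 5588 ± 993 in mutants at 3 h (1.06 ± 0.18, adjusted p = 0.0036).

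Of 21 other scaffold and link genes, 2 were called lower in mutants in homeostasis (median −0.77), 3 at 3 h (−0.48), 13 after neomycin in siblings (−1.41) and 13 in mutants (−1.04), and 0 higher in any. pjvk, the pejvakin gene, had 60.4 ± 3.56 CPM in siblings and 26.6 ± 2.61 in mutants in homeostasis (−1.19 ± 0.17, adjusted p = 0.0027), and ankrd24, a rootlet-associated gene, 51.4 ± 4.95 and 23.04 ± 3.97 (−1.16 ± 0.20, adjusted p = 0.0068). After neomycin in siblings, PCDH15 (ENSDARG00000008127), a gene of a tip link cadherin, fell by 2.24 on the log2 scale (adjusted p = 0.00013) and ptprq, a shaft connector gene, by 3.27 (adjusted p = 0.00028). For comparison, of the 23 hair cell genes outside the bundle lists, 6, 7, 17 and 15 were called lower in the same 4 comparisons (medians −1.02, −0.86, −1.89 and −1.97), and 1 was called higher, in mutants after neomycin. None of the 73 genes of these 4 lists was called for a difference between neomycin responses in edgeR (13 at an unadjusted p under 0.05, against 8.89% of all tested genes), and DESeq2 called 3 (against 1.7%). Between genotypes, single libraries moved these counts. Without sibling replicate 2 at 3 h, 11 actin genes, 11 scaffold genes and 16 hair cell genes outside the bundle lists were called lower in mutants in homeostasis. That fit called 9.19% of all tested genes in homeostasis in either direction, against 1.72% lower and 1.85% higher with all libraries. It also called 3 further myosins lower in mutants at 3 h, where its share of all tested genes was not tallied. Without mutant replicates 1 or 3 at 3 h, none of the actin, scaffold and other hair cell genes was called lower in mutants at 3 h. Without 1 library in homeostasis, the counts in homeostasis fell to as few as 1 myosin, 3 actin genes and 1 hair cell gene outside the bundle lists. Counts after neomycin moved by less than 1.5 times without any 1 library.

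**Figure D5:**
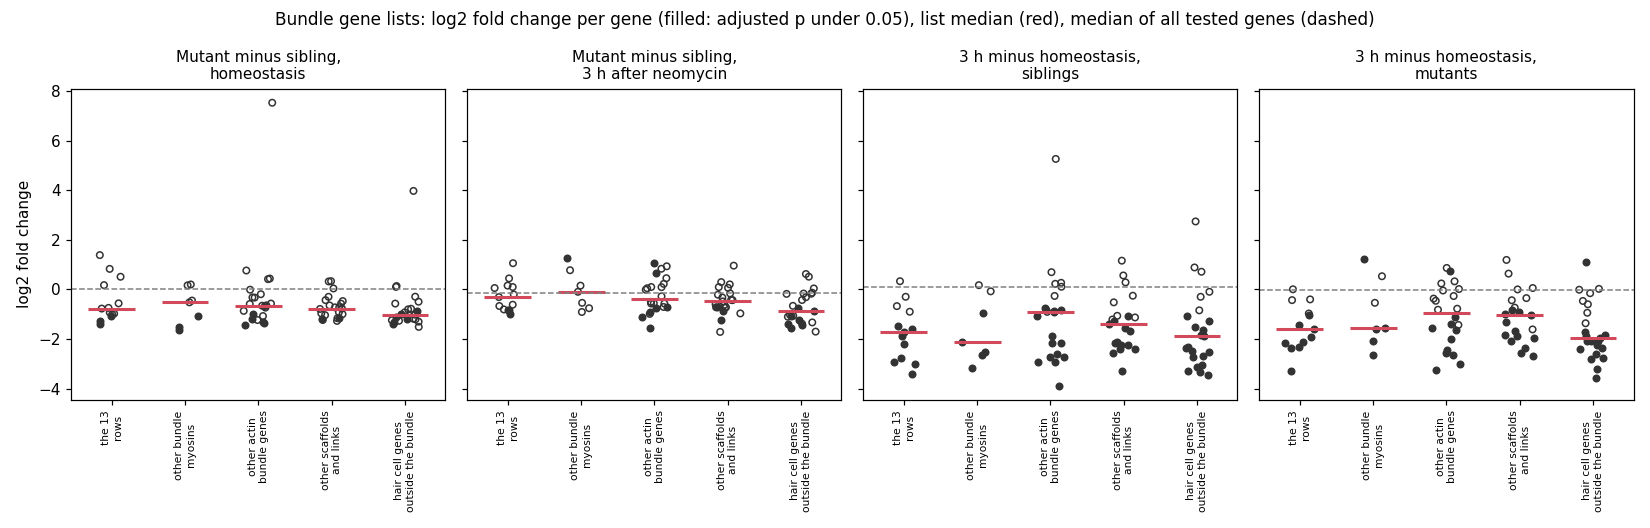
Log2 fold change of each gene of 5 lists in the 4 comparisons; points are genes, filled where the adjusted p was under 0.05, red bars are list medians and the dashed line is the median of all 22000 tested genes. List medians for 3 h against homeostasis in siblings run from −2.14 (other bundle myosins) to −0.92 (other actin bundle genes). The list labelled as hair cell genes outside the bundle also holds TMC1, TMC2, tmie and lhfpl5b, which work in the bundle.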

How the data were processed

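The authors deposited 1 table of raw read counts per Ensembl gene, with 1 column for each of the 12 RNA-seq libraries, made with the SMART-Seq v4 kit per the labels' protocols. Per the submitters' processing notes, which state neither roles nor order, the tools were bcl2fastq 2.18, STAR 2.7.3a, Bowtie2 and RSEM, and the build was danRer11. The annotation release is not given in the sources used here, nor is the strand setting, and the kit does not mark strand, so overlapping and antisense genes cannot be separated. Entries for ambiguous, multimapping, unassigned and unmapped reads took 28.2% to 35.2% of a library and were left out. The series also has 18 ATAC-seq samples, not analysed here.

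Symbols came from a name table, which covers 29201 of the 32520 gene IDs and gives no gene lengths, so levels are not compared between genes. Of 199 names in 16 gene lists, 177 matched. The bundle genes and the lists were chosen with earlier results of these data known. Groups and replicate numbers came from the sample titles. edgeR 4.0.16 (R 4.3.3) was run on the counts of all 12 libraries with TMM scaling, filterByExpr (22000 genes kept), 1 mean per group, quasi-likelihood tests, two-sided, and Benjamini-Hochberg adjustment over all genes kept; each SE is the fold change divided by the square root of F. CPM were computed from TMM-scaled library sizes and log2 CPM with a prior count of 2. Python 3.11.15 made the tables, and the fit was tested on simulated data.

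The text names every bundle gene. From each other list it draws on up to 4 called genes per comparison with the smallest adjusted p, and it adds the 5 genes most correlated with the bundle genes. Alternatives were RLE size factors, DESeq2 1.42.0, no filter, only the groups compared, the replicate number as a block, and leaving out each library. Deviations from group means correlated between same-numbered siblings and mutants at 3 h (r = 0.302, 0.460 and 0.192), so the numbers were taken to pair these 2 groups. In no other comparison did all 3 pairs exceed 0.1. Unlike-numbered libraries at 3 h had r of −0.403 to 0.155, and those of other comparisons up to 0.200. The pairing is therefore inferred from these data and not known. The main tests did not use this pairing. The replicate block applied it to all 4 groups, and no fit paired only these 2, so the p-values at 3 h ignore any such pairing. Chi-square tests found every within-group pair to differ beyond sampling noise, so all libraries were counted. Reads were PCR-amplified without molecular identifiers, so counts are not independent molecules.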

Additional observations from a re-analysis of the deposited data

How the results depend on the processing

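The falls after neomycin were the least dependent on processing: 9 genes were called in siblings under RLE size factors, no filter, the replicate block and DESeq2, and 8 with only the groups compared (9 to 10 with 1 library left out). In mutants it was 9 under each of these but the replicate block, which gave 10 by adding strc (9 in each fit with 1 library left out). The 3 calls between genotypes in homeostasis became 4 with RLE size factors, 10 with only the groups compared and 9 with DESeq2, and 1 to 9 with 1 library left out. The 3 calls at 3 h became 1 with RLE size factors, 0 without the filter, 0 with only the groups compared, and 0 to 3 with 1 library left out. DESeq2 called 4 at 3 h, 3 lower and 1 higher in mutants (WHRN ENSDARG00000068166). For these counts, the shares of all tested genes called under alternatives were tallied only in homeostasis. They were 8.3% with DESeq2, 10.7% with only the groups compared and 9.19% without sibling replicate 2 at 3 h, in either direction. For the other alternatives in homeostasis, and for all alternatives after neomycin and at 3 h, the shares were not tallied. For the difference between neomycin responses, 0 calls became 1 with DESeq2 and 0 to 1 with 1 library left out. The replicate block left 3 calls between genotypes in homeostasis and 3 at 3 h, and it changed no call of a bundle gene but strc after neomycin in mutants. No fold change that was called changed sign under any alternative run. The causes of these shifts were not tested. There were 3 libraries a group and a biological coefficient of variation of 32.3%. In the main fit, the called difference of a bundle gene between genotypes closest to 0 was −0.81 on the log2 scale. Other edgeR fits called ESPN in homeostasis closer to 0. It was at −0.59 with RLE size factors (adjusted p = 0.048) and −0.57 with TMM and only the groups compared (adjusted p = 0.012).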

Other observations

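ESPNL (ENSDARG00000093112), which shares its symbol with the espin-like gene and was chosen after its values were seen, had 37.4 ± 4.62 CPM in siblings in homeostasis, 20.5 ± 3.63 in mutants in homeostasis, 20.9 ± 6.16 in siblings at 3 h and 20.7 ± 3.56 in mutants at 3 h (SD, n = 3). Treated siblings had less of it than untreated ones (log2 fold change −0.84, adjusted p = 0.024 in edgeR), a call lost without sibling replicates 1 or 3 in homeostasis (0.055 and 0.074). In mutants the change was 0.01.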
